A study of Mus musculus with 6 samples.

Results

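The enzymes that make and break down prostaglandins were followed in the uterus of pregnant mice through every array probe that the deposited comparison table assigns to Ptgs1, Ptgs2, Ptges, Ptges2, Ptges3, Ptgis, Ptgds, Hpgd, Pla2g4a or Tbxas1. These 10 genes, of 30789 symbols on the array, were read by 17 of its 45281 probes. Total RNA of uterus, labelled with Cy3, was read on 6 Illumina bead arrays of one colour. Day 18.5 post coitum had 3 of them and day 15.5 post coitum the other 3. Neither strain nor treatment is given, nor how the arrays relate to the larger number of biological replicates in the design text, so the p-values speak of the variation among arrays, part of which may be technical. The series title is about how the pregnant uterus stays quiescent and then contracts at labour. The labels call the tissue uterus and the design text calls it myometrium, the muscle layer. All arrays sat on 1 chip, the days in separate blocks, and chip position and day cannot be told apart.

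Prostaglandins are local lipid hormones made from arachidonic acid. A phospholipase A2 such as that of Pla2g4a frees the fatty acid from membranes, a cyclooxygenase (Ptgs1, constitutive in many tissues, or Ptgs2, the inducible form) turns it into the unstable prostaglandin H2, and a terminal synthase turns that into prostaglandin E2, D2 or F2alpha, prostacyclin or thromboxane. Hpgd begins their inactivation by oxidising the 15-hydroxyl group. In the uterus, prostaglandins F2alpha and E2 act in contraction and cervical ripening, and in mice the cyclooxygenase of Ptgs1 is needed for the timely onset of labour.

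The stretches of DNA before 4 of these genes are shown because Ptgs1 and Ptges2 moved in opposite directions between the days, and because Hpgd and Ptgs2 carried the 6-base E-box that repressors of the ZEB family, named in the series title, are known to bind. Each is the 250 bases before the annotated start in RefSeq, build GRCm38.p6, written 5′ to 3′ on the strand of the gene, with the E-box in capitals.
Ptgs1, chr2:36230176-36230425, plus strand: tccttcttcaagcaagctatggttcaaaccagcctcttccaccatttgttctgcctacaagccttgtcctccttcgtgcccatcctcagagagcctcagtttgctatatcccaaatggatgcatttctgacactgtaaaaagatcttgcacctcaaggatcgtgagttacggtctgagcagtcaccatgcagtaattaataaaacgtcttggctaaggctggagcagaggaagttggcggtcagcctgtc
Ptges2, chr2:32395640-32395889, plus strand: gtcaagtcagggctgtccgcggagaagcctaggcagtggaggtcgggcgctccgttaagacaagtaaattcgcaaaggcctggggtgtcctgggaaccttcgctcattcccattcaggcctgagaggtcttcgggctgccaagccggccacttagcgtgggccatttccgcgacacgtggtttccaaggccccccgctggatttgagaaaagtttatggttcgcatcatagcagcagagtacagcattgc
Hpgd, chr8:56294302-56294551, plus strand: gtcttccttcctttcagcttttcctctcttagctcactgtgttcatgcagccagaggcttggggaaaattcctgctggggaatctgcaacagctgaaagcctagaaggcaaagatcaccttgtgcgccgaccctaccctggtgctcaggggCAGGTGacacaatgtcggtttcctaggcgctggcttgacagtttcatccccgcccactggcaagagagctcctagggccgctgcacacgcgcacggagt
Ptgs2, chr1:150099781-150100030, plus strand: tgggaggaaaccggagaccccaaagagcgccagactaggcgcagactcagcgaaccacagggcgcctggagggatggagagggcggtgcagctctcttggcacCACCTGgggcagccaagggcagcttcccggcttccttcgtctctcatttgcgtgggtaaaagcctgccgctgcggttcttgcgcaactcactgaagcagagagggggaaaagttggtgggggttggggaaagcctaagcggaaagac
The E-box CACCTG, searched on both strands so that it can also read CAGGTG, began 99 bases before the start of Hpgd and 147 bases before that of Ptgs2. It stood in 2 of the 10 member windows, which cover 9 genes, and in 17.2% of all 32851 windows of this length. Ptgis had no entry. The AP-1 motif TGANTCA stood in the windows of Ptgds and Tbxas1 and in 6.75% of all windows. The TATA box TATAAA stood in the window of Tbxas1, in a single window of Pla2g4a, whose other window lacked it, and in 12.4% of all. The cAMP response element TGACGTCA stood in none of the member windows and in 1.55% of all.

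Signals of 11 of the 17 probes, for 8 of the 10 genes, stood clear of background. A probe counted as detected on an array when its detection p-value, which compares it with the negative control beads, was under 0.05, and it was tested when detected on at least 3 of the 6 arrays. All 11 were detected on all 6 arrays. The arrays had between 43.6% and 46.5% of all probes detected and median unnormalized signals from 75.8 to 105, those of day 18.5 tending lower, so unnormalized signals are given for each array and the comparison was made after normalization. Each member value is the mean of 20 to 62 beads.

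No probe of the phospholipase gene Pla2g4a or of the inducible cyclooxygenase was detected. Pla2g4a, a cytosolic phospholipase A2 that feeds the pathway, gave unnormalized signals of 62.0, 63.7 and 57.1 at day 18.5, against 59.1, 52.0 and 59.5 at day 15.5. Its detection p-values ran from 0.630 to 0.987. The lowest signal of any detected probe on the same arrays was 107.5, 92.5 and 79.9 at day 18.5, against 117.0, 100.2 and 104.0 at day 15.5. Pla2g4a thus lay below the detection limit on every array, and no direction can be read from it.

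Ptgs2 was represented by 2 probes. ILMN_1231600 gave 79.1, 76.2 and 60.2 at day 18.5, against 80.6, 68.8 and 69.1 at day 15.5. ILMN_2717913 gave 57.5, 52.6 and 49.4 at day 18.5, against 64.1, 56.8 and 65.3 at day 15.5. Neither was detected on any array, which leaves the level of Ptgs2 bounded by background and does not show that the gene was silent. The same held for the Ptges probe ILMN_2616028 and the Tbxas1 probe ILMN_2568578, and the Tbxas1 probe ILMN_1234543 was detected on 1 array, of day 15.5. Ptges and Tbxas1 each also had a detected probe, so that an undetected probe can stand beside a detected one of the same gene. The undetected probes of Tbxas1 are annotated in the authors' deposited table to cDNA clones, and its detected probes to the RefSeq transcript.

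**Figure D1:**
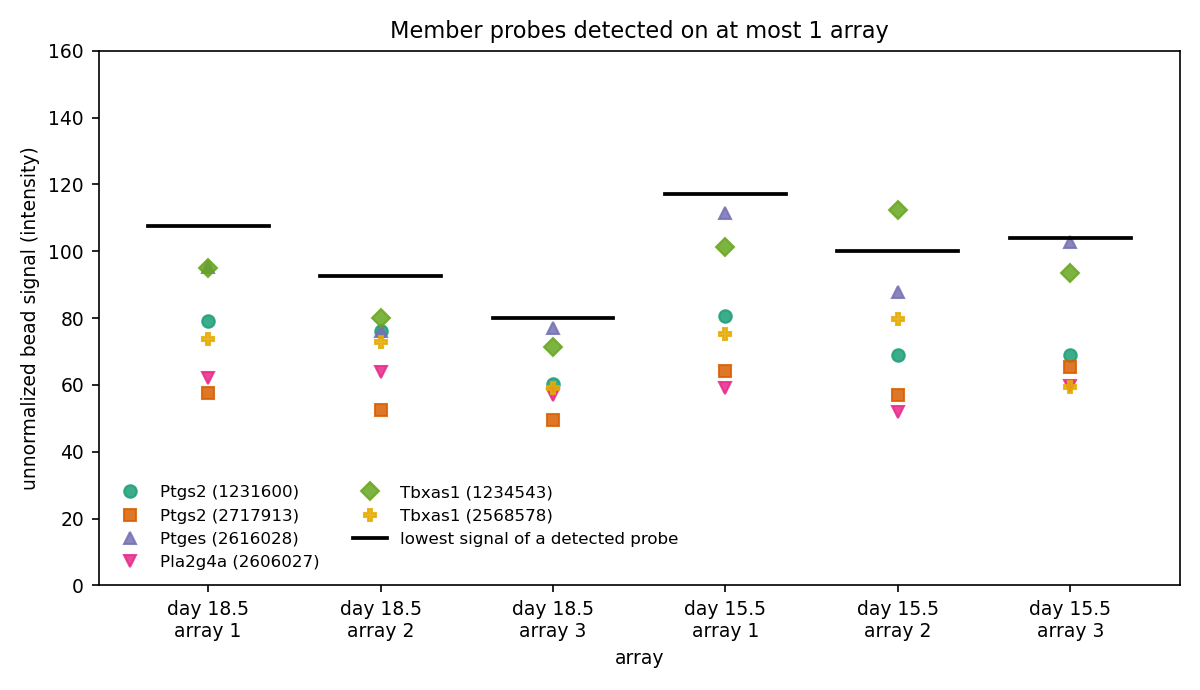
Unnormalized bead signals (intensity, linear axis) of the 6 member probes that were not tested, by array, with 1 marker per probe and a black bar at the lowest signal of any detected probe on that array. The only marker above its bar is the Tbxas1 probe ILMN_1234543 on the second array of day 15.5.

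Ptgs1, the cyclooxygenase that was measured, was lower at day 18.5. Probe ILMN_1239239 gave unnormalized signals of 514.2, 407.7 and 383.4 at day 18.5, against 1157, 923.4 and 691.4 at day 15.5. Every array of day 18.5 lay below every array of day 15.5, before normalization as well as after it. The mean normalized signal was 8.74 ± 0.09 at day 18.5 and 9.58 ± 0.29 at day 15.5 (log2, SD, n = 3 each), a fall of 1.78-fold (log2 difference -0.83 ± 0.16, SE; limma adjusted p = 0.00443).

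The other probes of Ptgs1 pointed the same way with less certainty. ILMN_1233864 gave 529.6, 423.3 and 358.5 at day 18.5, against 1056, 864.3 and 616.2 at day 15.5, and fell by 0.69 ± 0.17 (log2, SE; adjusted p = 0.0153). Its days did not overlap, but the call was lost without replicate 2 of day 15.5 (adjusted p = 0.0577) or replicate 3 of day 18.5 (adjusted p = 0.0526). ILMN_1224866 gave 326.0, 242.3 and 165.8 at day 18.5, against 461.7, 513.4 and 318.0 at day 15.5. Its days overlapped, with a log2 difference of -0.64 and an adjusted p of 0.0733. Its spread within days was larger than that of 95.8% of 1000 probes of like brightness, and its adjusted p passed the threshold in 7 of 15 alternatives. On all 3 probes, array 1 was the highest of day 18.5 and array 3 the lowest of day 15.5. The probes are read on the same arrays and assigned to 1 transcript, so they are not independent replicates.

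Of the enzymes that turn prostaglandin H2 into prostaglandin E2, Ptges2 rose. Ptges2, a membrane-associated synthase, was read by a single probe with unnormalized signals of 435.6, 325.5 and 305.8 at day 18.5, against 273.0, 249.6 and 282.0 at day 15.5. All arrays of day 18.5 were higher. Its mean normalized signal was 8.40 ± 0.15 at day 18.5 and 7.54 ± 0.19 at day 15.5 (log2, SD, n = 3 each), a 1.82-fold rise (log2 difference 0.87 ± 0.14, SE; adjusted p = 0.00202), and it passed in all 17 alternatives.

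Ptges3, which encodes a cytosolic synthase also known as p23, a co-chaperone of HSP90, changed less than the threshold could separate. Its normalized log2 signals were 9.51, 9.48 and 9.56 at day 18.5, against 9.28, 9.17 and 9.19 at day 15.5. These do not overlap, but the unnormalized signals do, at 789.3, 691.1 and 641.0 on day 18.5, against 816.7, 683.3 and 659.2 on day 15.5. The log2 difference was 0.31 with a 95% interval from 0.06 to 0.56 (adjusted p = 0.0749). The probe passed without background correction (adjusted p = 0.0341) and without the detection filter (adjusted p = 0.0328), and the difference was 0.18 with median scaling. The spread of Ptges3 within days was smaller than that of all but 2.2% of probes of like brightness.

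Ptges, the inducible microsomal synthase usually paired with Ptgs2, was not distinguishable between the days. Its detected probe gave 168.5, 144.8 and 131.3 at day 18.5, against 209.0, 163.3 and 136.5 at day 15.5. After normalization the difference was 0.19 (log2), with a 95% interval from -0.18 to 0.55 (adjusted p = 0.455). The interval excludes a change of 2-fold in either direction, and the days overlapped.

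Thromboxane synthase, encoded by Tbxas1 and best known from platelets and macrophages, was higher at day 18.5 on 1 of its 2 detected probes. ILMN_2769191 had normalized log2 signals of 7.67, 7.73 and 7.70 at day 18.5, against 7.10, 6.95 and 7.28 at day 15.5. The days did not overlap, although the unnormalized signals did (263.1, 239.6 and 208.1 at day 18.5, against 233.6, 195.3 and 220.1 at day 15.5). The rise was 0.59 ± 0.13 on the log2 scale (SE; adjusted p = 0.00823), with 0.41 to 0.67 over the 15 alternatives, all past the threshold.

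The second detected probe of Tbxas1, ILMN_1251390, stands for the gene where a gene is read by its brightest probe. It had normalized log2 signals of 8.20, 8.07 and 7.52 at day 18.5, against 7.40, 7.56 and 7.82 at day 15.5, with array 3 of day 18.5 inside the range of the other day. Its difference was 0.34 (95% interval from -0.10 to 0.77; adjusted p = 0.244), and it passed without that array (0.54, adjusted p = 0.0455). The mean of the probes of Tbxas1 rose by 0.46 (adjusted p = 0.0377). A call for the gene therefore depended on the probe chosen to stand for it.

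The synthases of prostacyclin and prostaglandin D2 and the inactivating enzyme did not pass the test. Ptgis, prostacyclin synthase of vascular and other smooth muscle, gave 2942, 2466 and 2017 at day 18.5, against 3069, 3399 and 3333 at day 15.5. The unnormalized days are separate, but the normalized ones overlap, with means of 11.38 ± 0.10 at day 18.5 and 11.52 ± 0.19 at day 15.5 (log2, SD, n = 3 each). The difference was -0.13 with a 95% interval from -0.44 to 0.17 (adjusted p = 0.528).

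Ptgds, the lipocalin-type prostaglandin D synthase, gave 195.5, 135.9 and 118.9 at day 18.5, against 158.3, 192.0 and 171.7 at day 15.5. The days overlapped, and the normalized difference of 0.08 (95% interval from -0.39 to 0.55; adjusted p = 0.820) changed sign without replicate 1 of day 18.5 (-0.10), when replicate 1 of day 15.5 was left out (-0.11) and under median scaling (-0.08). Hpgd, which inactivates prostaglandins, gave 570.1, 613.1 and 411.6 at day 18.5, against 571.3, 694.1 and 560.8 at day 15.5. Its difference was 0.11 (95% interval from -0.27 to 0.49; adjusted p = 0.679). The sign of Hpgd turned without replicate 2 of day 18.5 (-0.01), when replicate 1 of day 15.5 was left out (-0.01) and under median scaling (-0.02). The intervals of Ptgis, Ptgds and Hpgd leave room for differences of up to 0.55 in size on the log2 scale and exclude a 2-fold change.

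**Figure D2:**
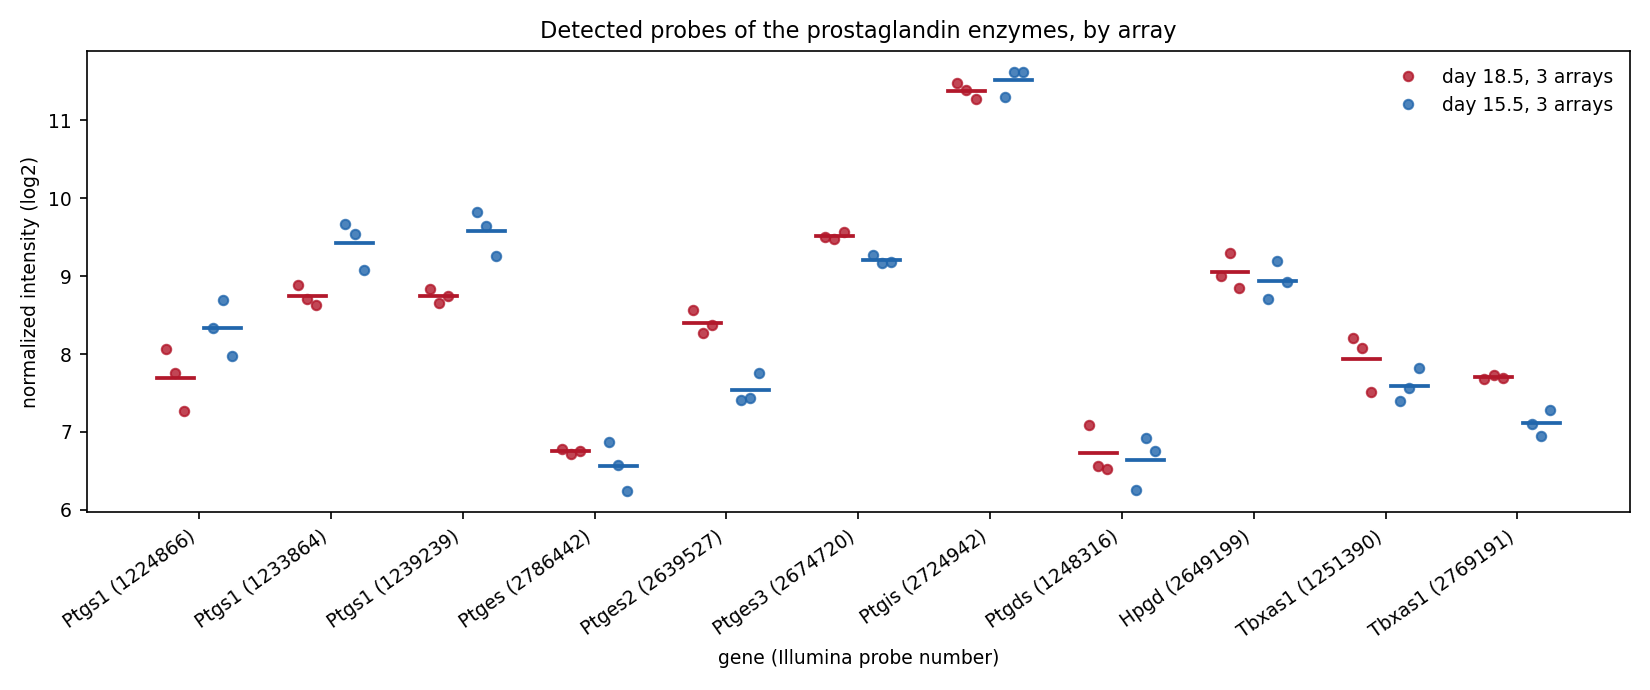
Normalized intensities (log2 axis) of the 11 tested member probes, with 3 points per day, day 18.5 left of day 15.5, and a bar at the mean of each day; levels of different probes are not comparable. The Ptgs1 probes ILMN_1233864 and ILMN_1239239 are separate and lower at day 18.5, Ptges2, Ptges3 and the Tbxas1 probe ILMN_2769191 are separate and higher, and the other 6 overlap.

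Counted over the 11 tested member probes, 2 rose (Ptges2 and 1 probe of Tbxas1), 2 fell (both of Ptgs1) and 7 did not pass. Of all 20701 probes tested, 24.8% were called, 11.6% as higher and 13.2% as lower at day 18.5. The 4 member calls came from 3 genes. With median scaling in place of quantile normalization the median difference of all probes moved to -0.11, against 0.01, and 29.4% of calls were higher, against 46.8%; the member calls were then 2 higher and 3 lower. The days did not overlap for 5 of the 11 member probes, 3 of them higher and 2 lower at day 18.5, and for 41.7% of all probes, 20.9% higher and 20.8% lower. The median log2 difference was 0.11 for the members and 0.01 for all probes, and the median of its size was 0.34 and 0.24. In the authors' deposited table, the ratio of day 18.5 over day 15.5 was 0.552 for ILMN_1239239 of Ptgs1, with a false discovery rate of 0.0091, and 1.91 for Ptges2, with 0.0048. That table gave 1.57 for the called Tbxas1 probe, with a rate of 0.0237.

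**Figure D3:**
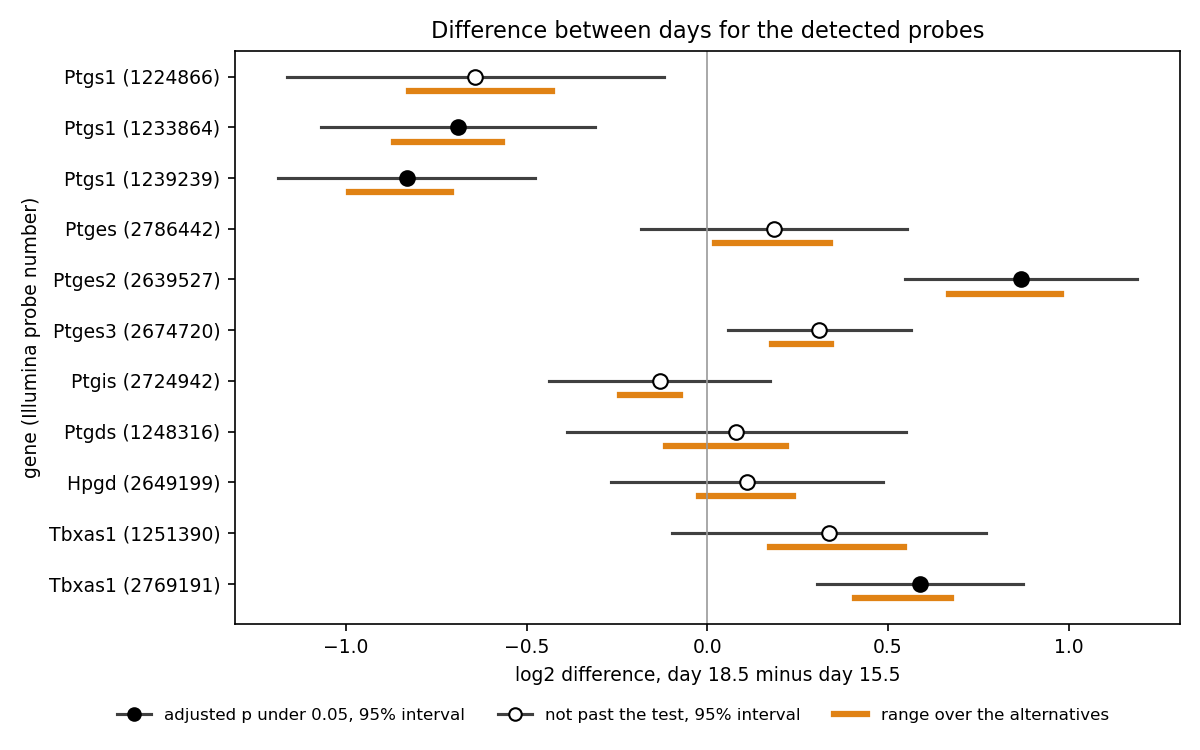
Log2 difference, day 18.5 minus day 15.5, of the 11 tested member probes, with 95% intervals from limma (dark lines), filled points for adjusted p under 0.05, and the range over the alternatives below each (orange). The 3 Ptgs1 probes lie between -0.83 and -0.64, Ptges2 lies at 0.87, and Ptgds and Hpgd have ranges that cross 0.

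Genes named for the likeness of their pattern across the 6 arrays are a description only, since the arrays fall into 2 days. The highest Pearson correlations with ILMN_1239239 of Ptgs1 were those of Cecr5 (0.998), Dtnb (0.997) and Pcca (0.995). For Ptges2 they were those of Arhgef2 (0.997), Rab32 (0.995) and Ltc4s (0.995), the last being the synthase of leukotriene C4. For the called Tbxas1 probe they were those of Tnc (0.996), Esd (0.995) and Hist1h4j (0.995), and for ILMN_1233864 of Ptgs1 those of Trim11 (0.996), Tmem181 (0.993) and Nhsl1 (0.991).

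Around these enzymes, a list of 62 other genes of arachidonic acid metabolism had probes for 60, of which 37 were detected well enough to be tested by their brightest probe. Among them 8 rose, 5 fell and 24 did not pass, with a median log2 difference of -0.05. Of all 14751 genes, 12.2% were called higher and 13.0% lower in the same way, 25.2% in all. Alox12e, Pla2g4f and Ptgdr2, counted among those that rose, entered the test only through their detection at day 18.5. Their p-values are therefore no support for a difference, and bounds are given for them instead.

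In the supply of arachidonic acid, the endocannabinoid hydrolases went opposite ways. Faah, which hydrolyses anandamide, had a mean normalized signal of 8.68 ± 0.11 at day 18.5 and 6.26 ± 0.13 at day 15.5 (log2, SD, n = 3 each), a rise of 5.34-fold (adjusted p = 4.12e-06), and its other detected probe rose as well. Mgll, which frees arachidonic acid from 2-arachidonoylglycerol, was at 10.50 ± 0.24 at day 18.5 and 11.74 ± 0.27 at day 15.5, a fall of 2.35-fold (adjusted p = 0.000906), and its 2 further detected probes fell too. Of 18 other phospholipase A2 genes with a probe, 6 were measured, of which 2 rose, none fell and 4 did not pass. Pla2g4f, a cytosolic form, gave a signal at day 18.5 that was at least 1.71-fold that of day 15.5. This is a bound: the gene was undetected throughout day 15.5, and the mean of day 18.5 is divided by that of the dimmest detected signals of the day 15.5 arrays. Pla2g7, which degrades platelet-activating factor, rose 1.76-fold (adjusted p = 0.00218). Pla2g12a changed by -0.07 (adjusted p = 0.763), and the regulators Anxa1, Anxa2 and Plaa did not pass, Anxa2 at -0.08 (adjusted p = 0.681).

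Among 10 further synthases and reductases, 1 rose, 2 fell and 7 did not pass. Hpgds, the haematopoietic prostaglandin D synthase, listed under its older symbol Ptgds2, was at 8.15 ± 0.28 at day 18.5 and 9.62 ± 0.19 at day 15.5 (log2, SD, n = 3 each). That was a fall of 2.76-fold (adjusted p = 0.000272), and its second detected probe fell by 1.66 on the log2 scale. Akr1b7, an aldose reductase relative with prostaglandin F synthase activity, fell 2.81-fold (adjusted p = 0.000105), whereas Akr1b3, aldose reductase itself, which has the same activity, rose 1.74-fold (adjusted p = 0.00259). Akr1c18, better known for inactivating progesterone, changed by -0.09 (adjusted p = 0.681).

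In inactivation and transport, 1 of 6 genes fell and 5 did not pass. Abcc4, a membrane pump that exports prostaglandins among other anions, was at 9.73 ± 0.22 at day 18.5 and 11.67 ± 0.26 at day 15.5 (log2, SD, n = 3 each), a fall of 3.85-fold (adjusted p = 5.25e-05). Slco2a1, which carries prostaglandins into cells for inactivation, changed by 0.27 (adjusted p = 0.328).

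Of 9 receptor and receptor-associated genes with a probe, 5 were measured, 2 rose and 3 did not pass by their brightest probe. The probes of Tbxa2r, the thromboxane receptor, differed in call: its brightest probe changed by -0.38 (adjusted p = 0.103), with no overlap between the days, and its second detected probe fell (log2 difference -0.57, adjusted p = 0.0235). That second probe was detected on 1 array of day 18.5 and on 3 of day 15.5. It met the detection filter through the day on which it was higher, and its day 18.5 signals lay near background, so its p-value is no firm support. Ptgdr2, a receptor of prostaglandin D2 listed as Gpr44, was also undetected throughout day 15.5. Its signal at day 18.5 was at least 1.60-fold that of day 15.5, again as a bound. Ptgfrn, which binds the prostaglandin F receptor and reduces its ligand binding, rose 1.49-fold (adjusted p = 0.0128), a call lost without replicate 1 of day 18.5 (adjusted p = 0.0514). Ptger2, an E2 receptor that raises cAMP, changed by -0.51 (adjusted p = 0.0898) and passed in 3 of its 16 alternatives. The F2alpha receptor Ptgfr, Ptger4, Ptgir and Ptgdr were not detected well enough to be tested.

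The competing lipoxygenase branch held the largest change of the list. Alox12e, an epidermal lipoxygenase, was detected on each array of day 18.5 and undetected throughout day 15.5. With the main background correction and offset, its rise was at least 12.5-fold. This bound holds for that setting only. The whole log2 difference of Alox12e fell short of it without background correction (2.85) and with an offset of 50 (3.28). Ltc4s rose 2.08-fold (adjusted p = 0.000586) and Alox5, which starts leukotriene synthesis, fell 1.63-fold (adjusted p = 0.00842), while its partner protein Alox5ap changed by 0.02 (adjusted p = 0.925). Over the alternatives the log2 difference ran from 2.85 to 5.04 for Alox12e, from 0.81 to 1.85 for Pla2g4f, from 0.82 to 1.74 for Ptgdr2 and from 1.68 to 2.70 for Faah.

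**Figure D4:**
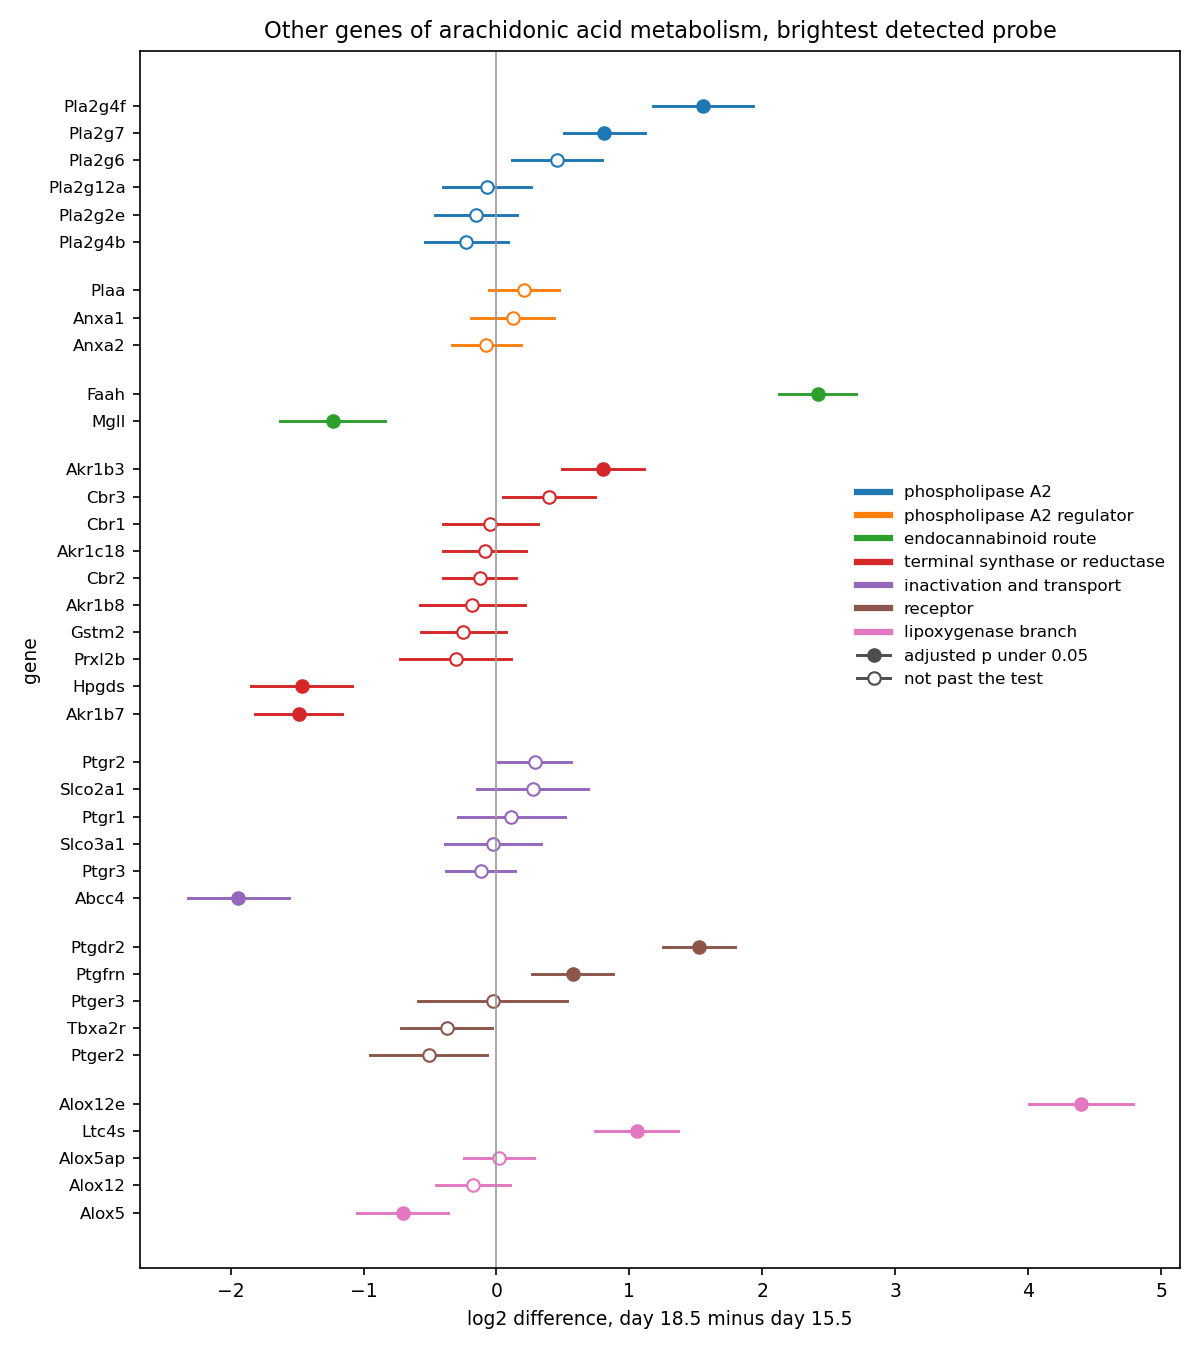
Log2 difference, day 18.5 minus day 15.5, of the 37 tested genes of the wider list by role, with 95% intervals and filled points for adjusted p under 0.05. Alox12e (4.40), Faah (2.42), Pla2g4f (1.56) and Ptgdr2 (1.52) lie farthest to the right and Abcc4 (-1.94) farthest to the left; Alox12e, Pla2g4f and Ptgdr2 were undetected at day 15.5, so their plotted differences depend on the background correction.

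Marker lists of cell types were read on the same arrays, and in bulk RNA fewer cells of a type and less RNA per cell cannot be told apart. Smooth muscle markers were all measured, 8 of 8, of which 2 fell, none rose and 6 did not pass. Their summed normalized intensity ran from 110791 to 119069 at day 18.5, against 105785 to 119031 at day 15.5. Epithelial markers rose in 6 of 7 measured cases, with Cldn3 not passing and Epcam not measured, and sums of 29589 to 33666 at day 18.5, against 12059 to 18640 at day 15.5. Trophoblast markers were measured in 3 of 8 cases, of which Prl2c2 and Prl7b1 rose and Prl3b1 did not pass. Prl7b1 was undetected throughout day 15.5, so its p-value is no support. With the main background correction and offset, its rise was at least 95.4-fold, as a bound. Trophoblast sums were 3846 to 12083 at day 18.5, against 94.4 to 218.2 at day 15.5. The day 15.5 sums include undetected signals, and on array 3 of that day no measured marker was detected (detection p 0.375, 0.274 and 0.091), so no fold can be read from them. Prl3d1, Tpbpa, Gcm1, Psg17 and Hand1 of that list were not measured. The epithelial and trophoblast sums moved with the rises of Ptges2, the called Tbxas1 probe, Faah and Alox12e, and their part in them was not tested. The smooth muscle sums overlapped between the days.

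Among blood and vessel cells, macrophage markers, all 8 measured, rose in 1 case (Cd14), fell in 1 (Mrc1) and did not pass in 6. Their sums were 20867 to 21148 at day 18.5, against 16595 to 19852 at day 15.5. Cd14 averaged 12.34 at day 18.5 and 10.81 at day 15.5 (log2), while the median log2 difference of the 8 markers was 0.05. Tbxas1 is known from macrophages, and the part of these cells in the rise of its called probe was not tested. Mast cell markers rose in 5 of 7 measured cases, while Hdc fell and Cpa3 did not pass, with Ms4a2 not measured and sums of 8298 to 8752 at day 18.5, against 6287 to 8666 at day 15.5. Hdc, the histamine-forming enzyme, had the largest difference of that list (-2.14, adjusted p = 4.41e-05). It fell, as did Hpgds, which mast cells are known to express. Kit, Tpsb2, Tpsab1, Cma1 and Mcpt4 were the 5 that rose, opposite to Hpgds, and the median log2 difference of the list was 0.82. The part of mast cells in the fall of Hpgds was not tested. Endothelial markers fell in 3 of 6 measured cases (Pecam1, Cdh5 and Emcn) and did not pass in 3, with Kdr and Esam not measured and sums of 4848 to 5598 at day 18.5, against 7704 to 9384 at day 15.5. Fibroblast markers fell in 3 of 8 cases and did not pass in 5, with sums of 63918 to 69204 at day 18.5, against 81886 to 83319 at day 15.5. Of 3 measured decidual markers Prl8a2 and Dio3 fell and Hand2 rose, with Prl6a1, Prl3c1 and Bmp2 not measured. Hand2 was undetected throughout day 15.5, so its p-value is no support. With the main background correction and offset, its rise was at least 1.72-fold, as a bound. Decidual sums were 1986 to 2567 at day 18.5, against 4382 to 6317 at day 15.5. The sums of the last 3 lists, though not each of their markers, moved with the falls of Ptgs1, Mgll and Abcc4. The part of these cells in those falls was not tested.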

How the data were processed

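RNA of 6 uterus samples was measured on Illumina bead arrays, 3 per day. Per the file headers, the unnormalized table as deposited holds bead intensities averaged by probe, with detection p-values. The authors' normalized intensities are quantile-normalized on a linear scale, as their sorted values differ by at most 3.89 between arrays; software and background method are not given in the sources used here. Per probe, the number of beads is given per the file headers. The authors' deposited comparison table also has ratios (day 18.5 divided by day 15.5) and false discovery rates (q-values), in lines sorted differently from the probes. All 43887 ratios found their probe through the symbol and the ratio of geometric means (relative tolerance 1e-05).

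The neqc function of limma 3.58.1 under R 4.3.3 estimated background from the detection p-values, added an offset of 16, quantile-normalized the signals and took log2. Single probes detected at p under 0.05 on at least 3 arrays were compared with lmFit and eBayes, two-sided, with Benjamini-Hochberg adjustment over 20701 probes; the procedure was tested on simulated data. For a probe detected on no array of a day, the fold is a bound for this correction and offset. Replicate numbers were not used to pair the arrays in the main fit. Members, lists, tests and alternatives were chosen with earlier results of these data known. Of the wider list, genes past the test and the brightest gene of each role not past it are named, with the 3 genes most like each called member; Anxa1, Plaa, Tbxa2r and the undetected receptors were named after their values were seen. MicroRNA data were not used here.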

Additional observations from a re-analysis of the deposited data

How the results depend on the processing

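The 17 alternatives were leaving out each array, the replicate block, weighted arrays, a robust trended variance, the mean of probes or the brightest probe per gene, a stricter or no filter on detection, the authors' values, median scaling, a larger offset and no correction of background. Ptgs1 at ILMN_1239239, Ptges2 and the called Tbxas1 probe kept direction and call in every alternative that tested them. With each gene read by its brightest probe, 1 member was called higher, since Tbxas1 then rests on ILMN_1251390. In that setting and with the mean of probes, 1 member was lower. This was Ptgs1, whose probes then count as 1 gene and which still passed (adjusted p = 0.00425 by its brightest probe and 0.0135 by the mean). Without 1 array, the member probes called lower numbered 1 to 3. Under the stricter detection filter 5 genes of the wider list were called higher, and Alox12e, Ptgdr2, Pla2g4f and Pla2g7 were not tested. With the replicate number as a block, 2 member probes were higher and 3 lower, the third being ILMN_1224866 of Ptgs1 (adjusted p = 0.0275); Ptger2 also passed (adjusted p = 0.0433), and all probes called were 2097 higher and 2424 lower. Deviations of arrays with a shared number correlated at -0.16, 0.14 and -0.07, and those with different numbers at -0.17 to 0.23. With so few arrays, these values cannot show whether arrays of the same number were paired. Dim probes such as those of Ptgs2 and Pla2g4a have no measured level here, and 3 arrays per day limit the precision of the rest.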
